A study of Mus musculus with 6 samples.

Results

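Duodenal villi take up dietary iron, and 10 genes of that route were read in the villus epithelium of double mutant and wild-type mice: Cybrd1, Slc11a2, Slc40a1, Heph, Tfrc, Fth1, Ftl1, Hmox1, Ireb2 and Epas1. They were chosen by name for their roles in iron entry, export, storage, release from heme and control. The choice of these genes and of the further lists below was made with earlier results of these data known. Each gene was matched by its Ensembl identifier to a row of a table of 20409 features. All 10 were found, and all 10 passed the filter on low counts that left 13346 genes for testing. The RNA came from 6 mice, 3 per group, with 1 male and 2 females in each group. The double mutants (DMV) carried floxed Smad4 on both alleles, a floxed exon 3 of the β-catenin gene on 1 allele and a Villin-CreERT2 transgene, so that tamoxifen removed Smad4 and made a stabilized β-catenin in epithelial cells, and their villi were collected 7 days after induction. The wild-type villi (WTV) came from littermates that received no tamoxifen, so that the drug, the Cre enzyme and the mutations cannot be told apart, and whether they carried floxed alleles is not given in the sources used here. The Villin promoter is active throughout the intestinal epithelium, in crypts as well as villi, and the background was enriched for C57BL6. The mice were on standard chow and their iron status and ages are not given in the sources used here.

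Ferric iron in the lumen is reduced at the brush border and enters the enterocyte as ferrous iron through DMT1, the product of Slc11a2. It is then either held in ferritin or leaves the basolateral side through ferroportin, the product of Slc40a1, and is oxidized by hephaestin so that plasma transferrin can bind it. Iron regulatory proteins read the iron level of the cell and bind a hairpin, the iron-responsive element. In a 5′ untranslated region (UTR) the hairpin blocks translation when bound, and in a 3′ UTR it protects the mRNA from decay. In the duodenum, HIF2α, the product of Epas1, is known to drive transcription of the apical uptake genes and of ferroportin when iron or oxygen is short.

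The hairpin is the sequence that groups these genes by mode of control, so the sites are shown here. UTRs annotated by GENCODE on mm9 were searched on the sense strand for a C, 5 bases of any kind and then CAGTGN, with at least 4 of the 5 upper stem positions paired, counting G-T pairs. Of 19945 genes with an annotated 5′ UTR, 189 (0.948%) held a match, and of 20007 genes with a 3′ UTR, 811 (4.05%) did. Among the 10 iron genes, 3 had a match in the 5′ UTR and 2 in the 3′ UTR. The capitals mark the bulged C and the 6 letters of the loop motif.
Fth1, 5′ UTR, chr19:10057222-10057250, plus strand: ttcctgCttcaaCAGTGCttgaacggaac
Ftl1, 5′ UTR, chr7:52715149-52715177, minus strand: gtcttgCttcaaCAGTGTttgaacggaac
Slc40a1, 5′ UTR, chr1:45982310-45982338, minus strand: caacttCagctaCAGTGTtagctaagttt
Slc11a2, 3′ UTR, chr15:100225584-100225612, minus strand: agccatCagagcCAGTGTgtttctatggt
Tfrc, 3′ UTR, chr16:32631305-32631333, plus strand: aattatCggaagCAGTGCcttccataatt
Tfrc, 3′ UTR, chr16:32631684-32631712, plus strand: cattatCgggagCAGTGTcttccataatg
Tfrc, 3′ UTR, chr16:32631749-32631777, plus strand: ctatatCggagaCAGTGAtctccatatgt
Tfrc, 3′ UTR, chr16:32631796-32631824, plus strand: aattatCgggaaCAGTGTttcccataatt

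The Slc11a2 site had 4 of 5 stem positions paired, against 5 of 5 in each of the others, and it lay in the 3′ UTR of 2 of the 8 annotated coding transcripts of the gene. Counts per gene do not separate those transcripts from the rest. The 4 Tfrc sites lay in 1 of its 3 coding transcripts. Under this rule no match was found in the annotated UTRs of Cybrd1, Heph, Hmox1, Ireb2 or Epas1, and since the rule asks for a stem paired without a gap, a hairpin with an extra bulge would be missed. A match is a description of the sequence, and the binding of a protein there was not measured.

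Totals ran from 19678507 to 26337318 counts per mouse, and values are given as normalized counts (CPM, scaled by the trimmed mean of M-values, TMM), on which a floor of 3 counts corresponds to 0.125 to 0.163 CPM. Smad4 stood at 119.8, 180.1 and 144.5 CPM in the wild-type mice and at 26.05, 36.83 and 32.13 CPM in the double mutants, a log2 fold change of -2.22 (SE 0.187, adjusted p = 0.000145, edgeR quasi-likelihood test), which fits the labels, whereas gene counts cannot show the loss of exon 3 of β-catenin. Wild-type mouse 1 stood apart from the other wild-type mice: 8 goblet cell markers summed to 0.0131% of its counts against 1.46% and 1.42%, and 6 markers of proliferating crypt cells to 0.00137% against 0.00753% and 0.00967%. In the double mutants the goblet markers summed to 0.525 to 0.596% and the crypt markers to 0.0158 to 0.0246%. All 10 enterocyte markers had counts, which summed to 4.69 to 5.23% of all counts in WTV and 3.19 to 3.52% in DMV, and 7 of the 10 fell and 1 rose, where 17.0% of all tested genes were lower and 19.7% higher. The 8 markers of T cells and intraepithelial lymphocytes summed to 0.00794 to 0.0163% in WTV and 0.00807 to 0.0122% in DMV, and 2 of the 8 fell (25%). The 4 endothelial markers in the table summed to 32 to 40 counts in WTV and 62 to 74 in DMV, and the 6 of fibroblasts and smooth muscle to 0 to 3 counts in WTV and 5 to 90 in DMV. In bulk tissue, fewer cells of a type and less RNA per cell cannot be told apart, and the part of these marker shifts in the results on the iron genes was not tested.

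Both apical uptake genes rose: Cybrd1 was 8.26-fold and Slc11a2 3.41-fold higher in double mutant villi. Hmox1, at 3.19-fold and within the errors of Slc11a2, and the ferritin heavy chain gene Fth1 also rose, and Heph, the basolateral ferroxidase, fell. For Slc40a1, Tfrc, Ftl1, Ireb2 and Epas1 the test did not pass. Thus 4 of 10 genes were higher and 1 lower at an adjusted p under 0.05 (edgeR quasi-likelihood test, Benjamini-Hochberg adjustment over all tested genes), where 36.8% of all tested genes passed, 19.7% higher and 17.0% lower. With a log2 fold change of at least 2 also required, which 5.30% of all tested genes met, 1 gene was higher (Cybrd1) and 0 were lower. The log2 fold changes had a median of 0.37 over the 10 genes and 0.02 over all tested genes. All double mutant mice lay above all wild-type mice for 5 of the 10 genes (28.1% of all genes) and below them for 1 (24.2% of all genes). When counts were scaled by library size alone, the median of all genes moved up by 0.19 and the split of all called genes moved from 2632 higher and 2273 lower to 3732 higher and 1425 lower, with 5 of the iron genes higher and 1 lower. Since the samples are separate mice, the p-values measure the spread between mice of this one experiment.

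**Figure D1:**
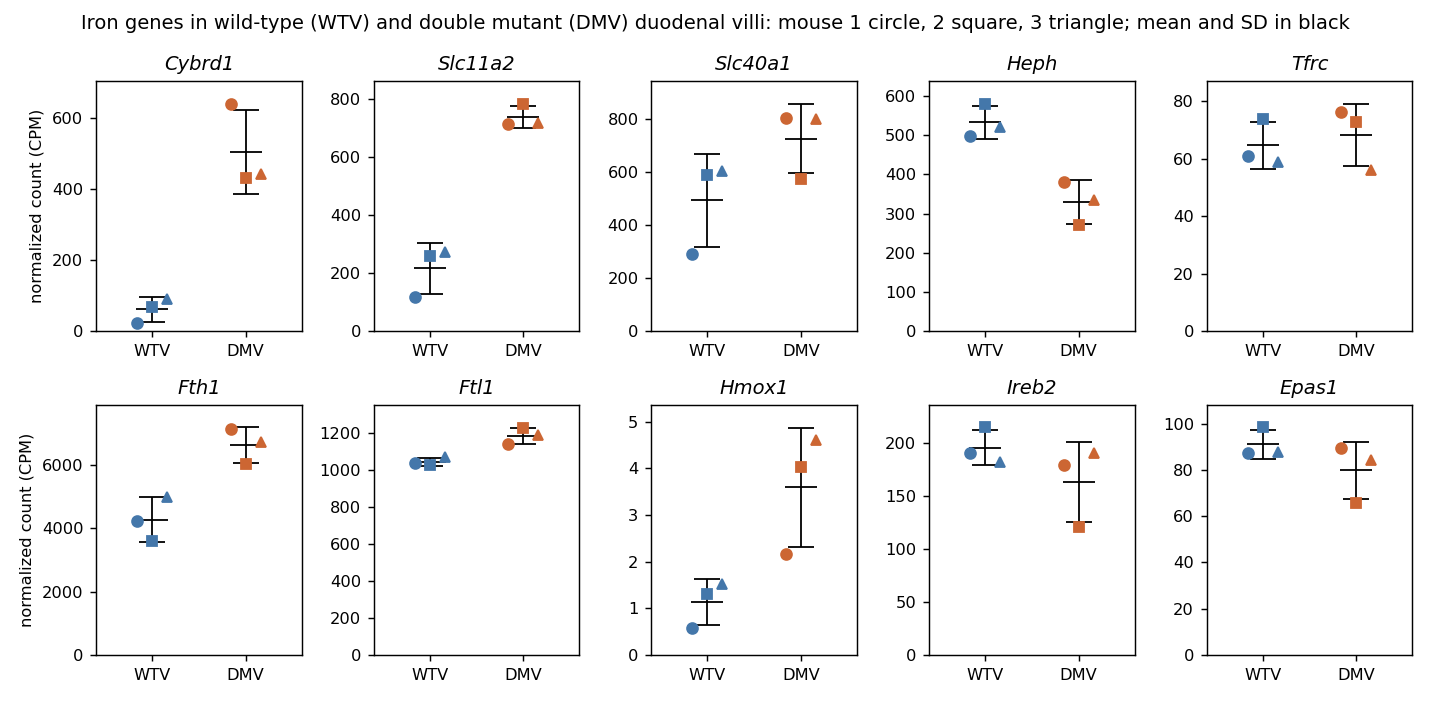
Normalized counts (CPM, vertical axis, each panel with its own scale from 0) of the 10 iron genes in 3 wild-type (WTV, blue) and 3 double mutant (DMV, orange) mice, with each mouse as a symbol and the group mean and SD in black. Cybrd1, Slc11a2, Fth1, Hmox1 and, by a small margin, Ftl1 sit higher in every double mutant mouse and Heph lower, while Slc40a1, Tfrc, Ireb2 and Epas1 overlap between the groups.

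**Figure D2:**
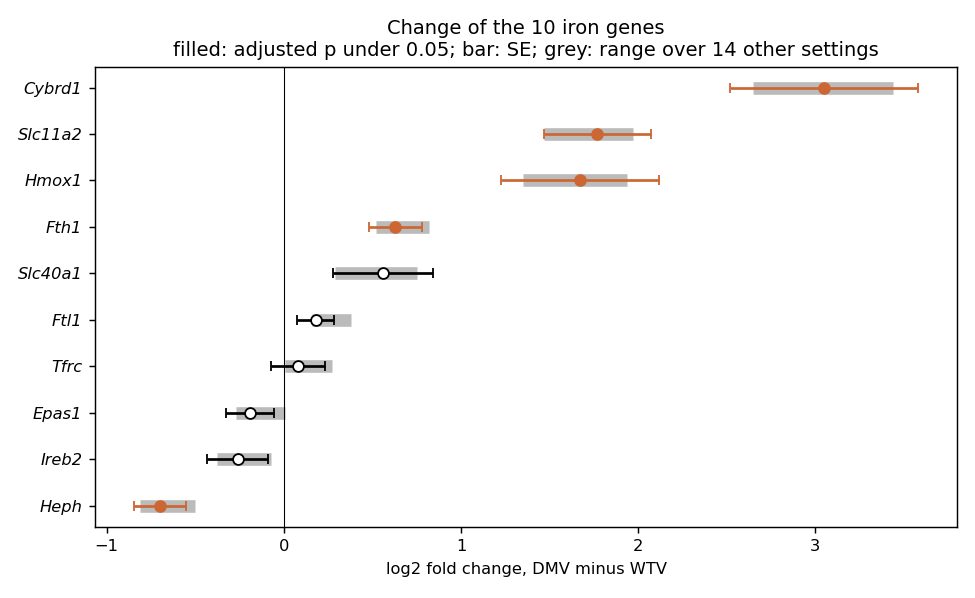
Log2 fold change of each iron gene (horizontal axis, double mutant minus wild-type) with its SE as a bar and the range over 14 other settings in grey, where filled points have an adjusted p under 0.05. Cybrd1 lies furthest to the right at 3.05 and Heph furthest to the left at -0.70.

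Cybrd1 (chr2:70955980-70980983, plus strand, mm9) encodes duodenal cytochrome b, the ferric reductase of the brush border. It stood at 23.12, 69.63 and 90.83 CPM in wild-type mice 1, 2 and 3 and at 640.9, 430.6 and 444 CPM in double mutant mice 1, 2 and 3. The lowest double mutant mouse was far above the highest wild-type mouse, and within the wild type the values spread over a 3.93-fold range, with mouse 1 lowest. The means were 61.2 ± 34.6 and 505 ± 118 CPM (SD, n = 3 each), and the log2 fold change was 3.05 (SE 0.532, adjusted p = 0.00787, edgeR). Only 97 of 13346 tested genes had a larger rise. Without wild-type mouse 1 the log2 fold change was 2.65 with an adjusted p of 4.08e-05, and over 14 other settings it ran from 2.65 to 3.44 and passed in each.

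The promoter of Cybrd1 is shown because it belongs to the gene with the largest change among the 10 and because HIF2α is known to act on this gene. Of the 10 genes, 5 (Cybrd1, Tfrc, Fth1, Ftl1 and Ireb2) had an entry in a RefSeq promoter table built on GRCm38.p6. Windows from 250 bases before to 50 bases after the start were searched on both strands for ACGTG and GCGTG, both forms of the hypoxia response element core, each of which can overlap its own reverse complement. The Cybrd1 window held 1 GCGTG, which begins 161 bases before the start, and no ACGTG. Each Tfrc window held 1 ACGTG and 2 GCGTG, and the log2 fold change of Tfrc was 0.08. The Ftl1 window held 1 GCGTG, the Fth1 windows held 0 or 1 GCGTG, and neither gene had an ACGTG. The Ireb2 window held 0 of both. A role of these matches in any change was not tested. Of 32851 RefSeq promoters, 32.4% held GCGTG and 19.6% held ACGTG, so such a match is common. The 250 bases before the Cybrd1 start follow, with the match in capitals.
Cybrd1 promoter, GRCm38.p6, chr2:71117804-71118053, plus strand: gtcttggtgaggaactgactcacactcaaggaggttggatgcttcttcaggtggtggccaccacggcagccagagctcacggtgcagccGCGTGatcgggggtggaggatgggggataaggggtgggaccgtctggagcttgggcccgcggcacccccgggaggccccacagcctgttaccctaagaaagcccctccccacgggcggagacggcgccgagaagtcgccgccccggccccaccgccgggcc

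Slc11a2 (chr15:100218329-100255503, minus strand, mm9) encodes DMT1, the apical transporter of ferrous iron. Wild-type mice 1, 2 and 3 had 116.6, 258.2 and 273.9 CPM and double mutant mice 712.4, 782.4 and 716.8 CPM. The double mutant mice lay within a narrow band well above every wild-type mouse, and wild-type mouse 1 was again lowest. The means were 216 ± 86.6 and 737 ± 39.2 CPM (SD, n = 3 each), with a log2 fold change of 1.77 (SE 0.301, adjusted p = 0.00398, edgeR). It was 1.47 without wild-type mouse 1 (adjusted p = 3.55e-05), ran from 1.47 to 1.97 over 14 other settings and passed in each. A gene on the opposite strand, Gm5475, overlaps Slc11a2 and had 34, 46 and 36 counts in wild-type and 179, 66 and 90 counts in double mutant mice. The strand setting of the counting is not given in the sources used here, so reads of the 2 genes cannot be told apart where they overlap.

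At the basolateral side, Slc40a1 (chr1:45964915-45982439, minus strand, mm9), which encodes ferroportin, the exporter of iron from cells, had 289.8, 587.4 and 602 CPM in wild-type mice 1, 2 and 3 and 805.2, 574.6 and 798.3 CPM in the double mutants. Double mutant mouse 2 lay below wild-type mice 2 and 3, so the groups overlapped. The means were 493 ± 176 and 726 ± 131 CPM (SD, n = 3 each), and the log2 fold change of 0.56 (SE 0.283) did not pass (adjusted p = 0.163, edgeR). It passed in 0 of 14 other settings, over which it ran from 0.29 to 0.75, and the lowest value was the one without wild-type mouse 1 (adjusted p = 0.187).

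Heph (chrX:93650698-93769824, plus strand, mm9) encodes hephaestin, the membrane copper oxidase that converts exported ferrous iron. It had 497.9, 579.9 and 519.8 CPM in the wild-type mice and 381.1, 270.3 and 335.1 CPM in the double mutants. Every double mutant mouse was below every wild-type mouse. The means were 533 ± 42.5 and 329 ± 55.6 CPM (SD, n = 3 each), a 1.62-fold lower level with a log2 fold change of -0.70 (SE 0.145, adjusted p = 0.00651, edgeR). The value was -0.74 without wild-type mouse 1 and lay between -0.81 and -0.50 over 14 other settings, passing in each. Hsf3, Gm14934 and Gm14935, which overlap Heph, had 0 to 19 counts.

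Tfrc (chr16:32609006-32632880, plus strand, mm9), the transferrin receptor that brings in iron from plasma rather than from the lumen, had 61.15, 73.93 and 59.04 CPM in wild-type and 76.24, 72.91 and 56.06 CPM in double mutant mice. The lowest and the highest of the 6 values were both in double mutant mice. The means were 64.7 ± 8.06 and 68.4 ± 10.8 CPM (SD, n = 3 each), with a log2 fold change of 0.08 (SE 0.15, adjusted p = 0.706, edgeR). Slc11a2 and Tfrc are the 2 genes with a match in the 3′ UTR, and their log2 fold changes were 1.77 and 0.08. Markers of erythroid cells, which are rich in Tfrc, were at 1 to 16 counts per mouse in sum over the 3 of 9 markers present.

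Of the 2 ferritin chains, the heavy chain rose and the light chain did not pass. Fth1 (chr19:10057193-10059582, plus strand, mm9) encodes the chain with ferroxidase activity, and had 4235, 3588 and 4983 CPM in wild-type and 7123, 6007 and 6711 CPM in double mutant mice. The lowest double mutant mouse was above the highest wild-type mouse. The means were 4270 ± 698 and 6610 ± 564 CPM (SD, n = 3 each), a 1.55-fold higher level with a log2 fold change of 0.63 (SE 0.152, adjusted p = 0.0123, edgeR). The value lay between 0.52 and 0.82 over 14 other settings and passed in each, with a highest adjusted p of 0.0447.

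Ftl1 (chr7:52713314-52715254, minus strand, mm9) encodes the light chain, which favours the iron core of the shell. It had 1040, 1029 and 1072 CPM in wild-type and 1144, 1229 and 1192 CPM in double mutant mice. The groups did not overlap, yet the difference was small. The means were 1050 ± 22.1 and 1190 ± 42.6 CPM (SD, n = 3 each), with a log2 fold change of 0.18 (SE 0.104) that did not pass (adjusted p = 0.202, edgeR). It passed in 1 of 14 other settings, the scaling by library size alone, at 0.38 with an adjusted p of 0.0201. Both genes have near-identical copies in the genome, and Fth-ps2 and Ftl2, the copies present in the table, had 0 to 4 counts; how reads that match several places were counted is not given in the sources used here.

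The ratio of Fth1 counts to Ftl1 counts needs no scaling between mice. It was 4.07, 3.49 and 4.65 in wild-type mice 1, 2 and 3 and 6.23, 4.89 and 5.63 in double mutant mice 1, 2 and 3. Each double mutant mouse was above each wild-type mouse, with double mutant mouse 2 close to wild-type mouse 3. The means were 4.07 ± 0.582 and 5.58 ± 0.671 (SD, n = 3 each), a log2 difference of 0.46 with an exact two-sided permutation p of 0.1, which is the smallest that 3 against 3 mice allow. Leaving out each mouse in turn gave 0.35 to 0.56. Protein levels of the chains were not measured, and the hairpin shown for both genes is known to act on translation.

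**Figure D3:**
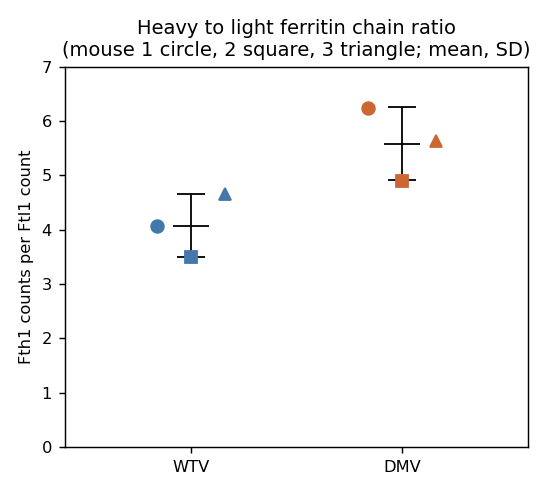
Fth1 counts per Ftl1 count (vertical axis, a ratio without unit, from 0) in 3 wild-type (WTV) and 3 double mutant (DMV) mice, with each mouse as a symbol and the group mean and SD in black. The wild-type mice lie between 3.49 and 4.65 and the double mutants between 4.89 and 6.23.

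Hmox1 (chr8:77617490-77624495, plus strand, mm9) encodes heme oxygenase 1, which frees iron from heme. It was low, with 14, 24 and 30 counts in wild-type and 46, 87 and 97 counts in double mutant mice, or 0.5832, 1.306 and 1.516 CPM against 2.159, 4.035 and 4.604 CPM. Double mutant mouse 1 was the lowest of its group and still above every wild-type mouse. The means were 1.14 ± 0.489 and 3.60 ± 1.28 CPM (SD, n = 3 each), a 3.19-fold higher level with a log2 fold change of 1.67 (SE 0.446, adjusted p = 0.0189, edgeR). The call was lost without double mutant mouse 2 (1.58, adjusted p = 0.0645) and without double mutant mouse 3 (1.46, adjusted p = 0.0726), and without wild-type mouse 1 the value was 1.35 (adjusted p = 0.0206). Macrophages are known for Hmox1, and the 8 of 11 macrophage markers present in the table summed to 91 to 175 counts in wild-type and 108 to 127 counts in double mutant mice, so the groups overlapped. Each of those 8 markers had counts in at least 1 mouse. Most of the sum was Cd14, with 63, 135 and 142 counts in wild-type and 70, 74 and 88 counts in double mutant mice, while Cd68, the other tested marker, had a log2 fold change of 0.72 against -0.65 for Cd14, and neither passed. The part of macrophages in the Hmox1 result was not tested.

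Around Hmox1, a list of 15 other genes of heme synthesis and breakdown had 14 tested genes, of which 1 was higher, 1 lower and 12 did not pass (14.3% called, against 36.8% of all tested genes), with a median log2 fold change of -0.01. Bach1, a heme-sensing repressor known to act on Hmox1, fell from 116.3, 156.1 and 140.2 CPM in wild-type to 75.44, 56.21 and 79.27 CPM in double mutant mice (log2 fold change -0.97, SE 0.164, adjusted p = 0.00264, edgeR). Without wild-type mouse 1, 3 genes of this list were higher and 2 lower. Library size alone also gave 3 higher, and DESeq2, the other size factors (RLE), no filter and sex as a covariate each gave 2 lower.

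Of the genes that control iron handling, Ireb2 (chr9:54711562-54760341, plus strand, mm9), which encodes iron regulatory protein 2, had 190.5, 214.9 and 182.5 CPM in wild-type and 179.1, 120.5 and 190.4 CPM in double mutant mice. Double mutant mouse 2 was lowest and the other double mutant mice were near the wild-type values. The means were 196 ± 16.9 and 163 ± 37.5 CPM (SD, n = 3 each), with a log2 fold change of -0.26 (SE 0.173, adjusted p = 0.266, edgeR) that passed in 0 of 14 other settings.

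Aco1, the gene of iron regulatory protein 1, which is also cytosolic aconitase, fell. It had 431.2, 378.0 and 285.2 CPM in wild-type and 235.3, 221.2 and 220.6 CPM in double mutant mice, with no overlap. The log2 fold change was -0.69 (SE 0.153, adjusted p = 0.00869, edgeR). Fbxl5, the iron-sensing subunit of the ubiquitin ligase that removes iron regulatory proteins, fell from 199.9, 175.8 and 175.6 CPM to 122.2, 94.57 and 101.3 CPM (-0.79, SE 0.128, adjusted p = 0.00211, edgeR), while Skp1a, a shared subunit of such ligases, rose from 160 ± 3.1 to 229 ± 8.12 CPM (0.52, SE 0.0956, adjusted p = 0.00376, edgeR). In this list of 13 tested genes around the iron regulatory proteins, 1 was higher (7.69%, against 19.7% of all tested genes), 3 were lower (23.1%, against 17.0%) and 9 did not pass, with a median of 0.06, and under library size alone 4 were higher.

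Epas1 (chr17:87153247-87232750, plus strand, mm9) had 87.27, 98.41 and 87.59 CPM in wild-type and 89.52, 65.81 and 84.16 CPM in double mutant mice. The groups overlapped, and double mutant mouse 2 was lowest. The means were 91.1 ± 6.34 and 79.8 ± 12.4 CPM (SD, n = 3 each), with a log2 fold change of -0.19 (SE 0.137, adjusted p = 0.308, edgeR) that was 0.0045 when library size alone was used. HIF2α is known to be set largely by protein stability, which these counts do not measure.

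Of 8 tested genes of the oxygen-sensing machinery around HIF, 0 were higher (against 19.7% of all tested genes), 2 were lower (25%, against 17.0%) and 6 did not pass, with a median of -0.31. Egln3, a prolyl hydroxylase that marks HIF for decay and is itself known as a HIF target, fell from 286 ± 51.0 to 106 ± 12.9 CPM (-1.43, SE 0.156, adjusted p = 0.000379, edgeR). Hif1a, the other main HIF α subunit, went from 97.3 ± 24.2 to 66.2 ± 5.97 CPM with overlapping groups (-0.56, SE 0.186, adjusted p = 0.0458, edgeR), a call that held in 7 of 14 other settings and in 1 of the 6 fits without 1 mouse, the one without wild-type mouse 3 (-0.75, adjusted p = 0.00631, edgeR). Without wild-type mouse 1 it was -0.44 and did not pass (adjusted p = 0.0916, edgeR). This list had 1 gene lower without wild-type mouse 1, without wild-type mouse 2 and without double mutant mouse 2. It also had 1 lower with library size alone and with limma-voom, and 3 lower with DESeq2 and with RLE size factors. Of 18 genes known to respond to hypoxia, 7 were higher (38.9%, against 19.7% of all tested genes), 3 lower (16.7%, against 17.0%) and 8 did not pass, with a median of 0.22. Car12, a carbonic anhydrase, rose from 1.67 ± 0.304 to 9.60 ± 3.53 CPM (2.52, SE 0.339, adjusted p = 0.000945, edgeR). Mxi1, a MAX-binding repressor, fell from 264 ± 13.6 to 109 ± 10.7 CPM (-1.28, SE 0.113, adjusted p = 0.000175, edgeR). In this list 1 gene was lower, in place of 3, without double mutant mouse 1, without double mutant mouse 3 and without wild-type mouse 3.

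Levels of different genes were set side by side only per length of annotated exon, as CPM per kilobase. Fth1 was the most abundant of the 10 at 4930 ± 807 in the wild type and 7640 ± 652 in the double mutant (SD, n = 3 each), rank 9 and rank 7 of all tested genes. Ftl1 followed at 781 ± 16.5 and 887 ± 31.8, and Slc40a1 at 146 ± 52.1 and 215 ± 38.8. Heph was next in the wild-type mice at 69.5 ± 5.54, then Slc11a2 at 34.0 ± 13.6 and Ireb2 at 33.7 ± 2.91, which did not differ beyond their spread. Epas1 at 17.2 ± 1.19, Cybrd1 at 11.5 ± 6.49, Tfrc at 10.5 ± 1.30 and Hmox1 at 0.525 ± 0.226 were lower, and Cybrd1 could not be separated from Epas1 or Tfrc beyond its spread. In double mutant villi Slc11a2 at 116 ± 6.17 and Cybrd1 at 94.6 ± 22.1 stood above Heph at 42.9 ± 7.26, and Slc11a2 and Cybrd1 did not differ beyond the spread of Cybrd1. Slc11a2 moved from rank 1814 to rank 512 and Cybrd1 from rank 4205 to rank 624. Ireb2 at 28.1 ± 6.46, Epas1 at 15.0 ± 2.34, Tfrc at 11.1 ± 1.75 and Hmox1 at 1.67 ± 0.592 followed in that order.

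The rest of the pathway was read in 8 lists, the 4 described above and 4 more. Of 113 listed genes, 108 were in the table and 98 were tested, and 27 were higher, 14 lower and 57 did not pass, or 41.8% called against the 36.8% of all tested genes. Steap1, Trfr2 and Lcn2, described below, are among the 27 and passed the filter only through the double mutant libraries. These counts are thus partly set by the filter, and nothing is read from them. Their median log2 fold change was 0.06. Library size alone gave 35 higher and 11 lower, and the fits without 1 mouse gave 18 to 30 higher and 12 to 13 lower. The count of lower genes was 19 with DESeq2, 18 with RLE size factors, 17 with sex as a covariate and 16 with no filter.

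The list nearest to the uptake genes, other membrane transporters and reductases of iron and heme, had 12 tested genes with 5 higher (41.7%, against 19.7% of all tested genes), 3 lower (25%, against 17.0%) and 4 not passing, and a median of 0.50. Steap1, of a family of metalloreductases, had 5, 5 and 9 counts in wild-type and 103, 132 and 59 counts in double mutant mice, with a log2 fold change of 3.87 (SE 0.458, adjusted p = 0.00055, edgeR). It passed the filter on low counts only through the double mutant libraries. The count of higher genes in this list is thus partly set by the filter, and nothing is read from it. Slc39a14, a zinc and iron importer (ZIP14), rose from 227.7, 249.3 and 271.1 CPM to 673.6, 549.2 and 620.3 CPM (1.30, SE 0.124, adjusted p = 0.00025, edgeR). Mfsd7c, also named Flvcr2, had 16.45, 6.31 and 3.437 CPM in wild-type mice 1, 2 and 3 and 0.7511, 0.6493 and 0.9968 CPM in double mutant mice. Wild-type mouse 1 was highest, and the log2 fold change of -3.45 (SE 0.607, adjusted p = 0.00416, edgeR) was -2.60 without it (adjusted p = 0.000602). Slc46a1, the proton-coupled folate transporter that was also described as a heme carrier, stood at 455 ± 97.6 and 496 ± 75.1 CPM (0.12, SE 0.182, adjusted p = 0.629, edgeR). Cp, the plasma ferroxidase related to hephaestin, had 1, 2 and 0 counts in wild-type and 6, 15 and 4 counts in double mutant mice and was too low to test.

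Of the transferrin cycle and hepcidin axis, 4 of 12 listed genes were tested, and 3 were higher, 0 lower and 1 did not pass, where 19.7% of all tested genes were higher and 17.0% lower. Of these, Trfr2 and Lcn2 were low in wild-type mice and passed the filter on low counts through the double mutant libraries, so the count is partly set by the filter and nothing is read from it. Trfr2, which encodes transferrin receptor 2, had 3, 3 and 4 counts in wild-type and 41, 56 and 44 counts in double mutant mice (log2 fold change 3.72, SE 0.433, adjusted p = 0.000515, edgeR). The wild-type counts were at or next to the floor of 3 counts, so this fold change is imprecise and depends on a few reads. Trf, the transferrin gene, had 0, 0 and 2 counts against 0, 6 and 0, and Hamp, the hepcidin gene, had 0, 2 and 0 against 0, 0 and 0. Both are mainly liver genes and neither could be tested here.

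Among 9 tested genes of cytosolic iron handling and ferritin turnover, 2 were higher and 1 lower, 22.2% and 11.1%, and 6 did not pass, with a median of -0.10. The share of higher genes was near the 19.7% of all tested genes, and that of lower genes stood beside 17.0%. Ncoa4, the receptor that carries ferritin to lysosomes, had 132.9, 274.6 and 227.4 CPM in wild-type and 367.3, 243.3 and 374.2 CPM in double mutant mice. The groups overlapped through double mutant mouse 2, and the log2 fold change of 0.63 (SE 0.281) did not pass (adjusted p = 0.118, edgeR). The iron chaperone genes Pcbp1 (0.05, adjusted p = 0.788) and Pcbp2 (-0.22, adjusted p = 0.199) did not pass either in the edgeR test. Bola2, a partner of glutaredoxin in iron-sulfur transfer, rose (0.89, SE 0.205, adjusted p = 0.0104, edgeR) and Mcoln1, a lysosomal cation channel, fell (-0.58, SE 0.121, adjusted p = 0.00662, edgeR). In 5 of the 6 fits without 1 mouse, all but that without wild-type mouse 1, this list had 1 gene higher, and without wild-type mouse 2 it had 2 lower. DESeq2 gave 3 higher and 2 lower.

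Of 20 tested genes of mitochondrial iron import and iron-sulfur cluster assembly, 8 were higher (40%, against 19.7% of all tested genes), 1 was lower (5%, against 17.0%) and 11 did not pass, with a median of 0.29. Fdx1l, a mitochondrial ferredoxin, rose from 4.39 ± 0.481 to 14.2 ± 2.38 CPM (1.70, SE 0.193, adjusted p = 0.000472, edgeR). Abcb10, a transporter of the inner membrane, fell from 120.0 ± 10.5 to 81.0 ± 1.51 CPM (-0.57, SE 0.107, adjusted p = 0.00424, edgeR). The count of higher genes in this list depended on single mice: it was 2 without double mutant mouse 2, 4 without wild-type mouse 2 and 5 without double mutant mouse 3 or without wild-type mouse 3, and 2 genes were lower without double mutant mouse 1, double mutant mouse 3 or wild-type mouse 3. DESeq2, RLE size factors and sex as a covariate each also gave 2 lower.

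**Figure D4:**
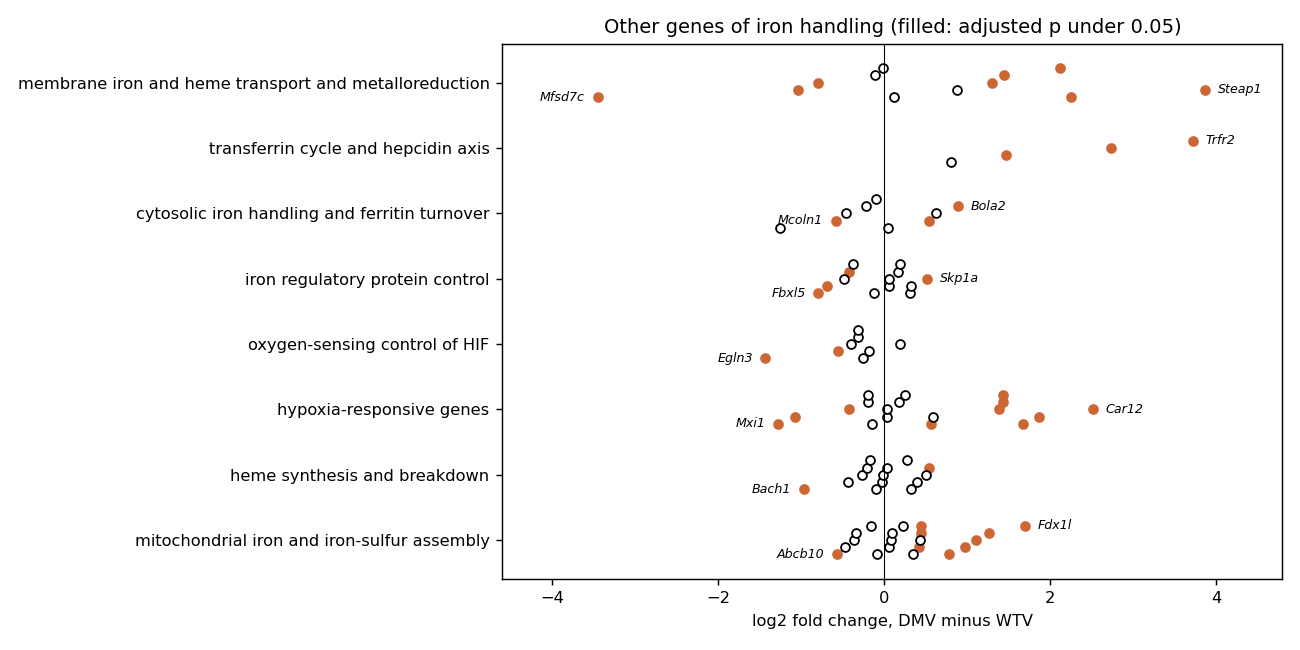
Log2 fold change (horizontal axis, double mutant minus wild-type) of each tested gene in 8 lists of iron handling (rows, with points offset vertically for legibility), where filled points have an adjusted p under 0.05 and several of the genes with the most positive or most negative values are named. Of 98 genes, 27 filled points lie to the right of 0 and 14 to the left, from -3.45 for Mfsd7c to 3.87 for Steap1.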

How the data were processed

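Polyadenylated RNA of duodenal villus epithelium, separated with EDTA, was sequenced as paired reads in 6 mice. The authors aligned the reads to mm9 with HISAT2 and counted them per gene with featureCounts, and the deposited values are raw counts, with 1 column per mouse and no normalization. The annotation version, the strand setting and the rule for reads with several matches are not given in the sources used here. Of 20073 Ensembl identifiers, 20032 had an entry in GENCODE for mm9, the source of symbols and coordinates. The other 336 of the 20409 features are numbered transcripts that name no gene.

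From the counts onward, R 4.3.3 was used with edgeR 4.0.16 (filterByExpr, TMM, robust glmQLFit, glmQLFTest), and p-values were adjusted by Benjamini and Hochberg over 13346 tested genes. Each SE is the absolute log2 fold change over the root of F. Alternatives were DESeq2 1.42.0, limma-voom 3.58.1, other scalings and filters, a replicate block, sex as a covariate, and each mouse left out in turn. CPM per kilobase used the union of annotated exons. The edgeR fit was tested on simulated data, with the outcome not given here. The depth was 19678507 to 26337318 counts, and the part of counting error in the spread between mice was not separated.

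The 10 genes and the other lists were chosen with earlier results of these data known. Named genes outside the 10 are Smad4, 11 genes of set interest and, in each list, the called genes with the most positive and the most negative log2 fold change, of which 1 is not reported here. Genes that overlap or copy one of the 10, 2 macrophage markers, Lcn2 and the further genes of the closing section were named after their values were seen. Groups came from the sample labels.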

Additional observations from a re-analysis of the deposited data

How the results depend on the processing

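Over 14 other settings (8 other tests, scalings, filters or terms and 6 fits without 1 mouse), Cybrd1, Slc11a2, Fth1 and Heph kept their direction and their side of the threshold in each, and Hmox1 in 12 of 14. Leaving out each mouse in turn gave 3 to 4 of the 10 genes higher and 1 lower, where Hmox1 was the gene lost. With a log2 fold change of at least 2 also required, 1 gene was higher and 0 were lower, since that rule asks for a larger change. Library size alone turned Epas1 to 0.0045, and over the fits without 1 mouse Slc46a1 ran from -0.04 (without wild-type mouse 1) to 0.25 and Pcbp1 from -0.05 (without double mutant mouse 2) to 0.13, none of these 3 reversed values passing the threshold; the cause was not tested. The difference in the Fth1 to Ftl1 ratio between the groups was 0.46 on the log2 scale also per kilobase of exon.

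The groups share replicate numbers, but mice of the same number did not deviate together (correlations of 0.00, -0.17 and 0.01). No mouse correlated best with the mouse of its own number. A fit with a replicate block gave 4 of the 10 genes higher and 1 lower, 22 of the genes in the other lists higher and 12 lower, and 2084 higher and 1750 lower over all genes, with Cybrd1 at 3.20 (adjusted p = 0.0404, edgeR). The mitochondrial list had 5 genes higher under the block.

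With 3 mice per group the p of an exact permutation test cannot go below 0.1, and the test on Hmox1 rests on 14 to 97 counts per mouse. Iron status, protein levels and transcript isoforms were not measured in these counts.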

Other observations

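The other called genes of membrane iron and heme transport, and Ltf of the transferrin list, are named here after their values were seen. Slc39a8 (ZIP8), an importer of zinc, manganese and iron, had 1.208, 3.971 and 3.69 CPM in wild-type and 14.98, 11.73 and 15.24 CPM in double mutant mice (log2 fold change 2.25, SE 0.394, adjusted p = 0.0035, edgeR). Steap2, a metalloreductase, went from 2.34 ± 0.239 to 10.2 ± 1.15 CPM (2.12, SE 0.205, adjusted p = 0.000255, edgeR). Slc48a1, a heme transporter, went from 2.77 ± 0.495 to 7.59 ± 0.441 CPM (1.45, SE 0.223, adjusted p = 0.00168, edgeR). Ltf, which encodes lactoferrin, had 1.375, 5.331 and 4.195 CPM in wild-type and 20.89, 21.75 and 29.67 CPM in double mutant mice, with no overlap (2.74, SE 0.445, adjusted p = 0.00338, edgeR). Mfsd7b, also named Flvcr1, a heme and choline transporter, had 110.7, 102.2 and 67.83 CPM in wild-type and 48.02, 46.43 and 42.01 CPM in double mutant mice (-1.04, SE 0.18, adjusted p = 0.00292, edgeR). Abcg2, an exporter of porphyrins and drugs, had 227.8, 151 and 166.7 CPM in wild-type and 112.2, 105.5 and 97.11 CPM in double mutant mice (-0.79, SE 0.161, adjusted p = 0.00589, edgeR).

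Among the hypoxia-responsive genes, also named after their values were seen, Ankrd37 had 7.664, 7.725 and 8.542 CPM in wild-type and 28.73, 30.61 and 27.86 CPM in double mutant mice (log2 fold change 1.87, SE 0.132, adjusted p = 7.31e-05, edgeR). Car9, a carbonic anhydrase of the cell surface, had 53.44, 88.78 and 80.57 CPM in wild-type and 240.8, 225.7 and 240.6 CPM in double mutant mice (1.67, SE 0.181, adjusted p = 0.000379, edgeR). Pdk1, a kinase that holds back pyruvate dehydrogenase, rose from 27.3 ± 1.83 to 73.5 ± 3.58 CPM (1.43, SE 0.111, adjusted p = 0.000111, edgeR). Slc2a1, a glucose transporter (1.43, adjusted p = 0.0319), Ddit4, an inhibitor of mTOR signalling (1.38, adjusted p = 0.00149), and Ero1l, an oxidase of the endoplasmic reticulum (0.57, adjusted p = 0.0209), were the other genes of the list that rose in the edgeR test. Adm, the adrenomedullin gene, fell from 4.15 ± 1.08 to 1.97 ± 0.117 CPM (-1.07, SE 0.288, adjusted p = 0.0194, edgeR). Ldha, a lactate dehydrogenase subunit, had 2966, 2607 and 2597 CPM in wild-type and 1962, 2281 and 1851 CPM in double mutant mice (-0.42, SE 0.129, adjusted p = 0.0323, edgeR). These values are of the same comparison as the rest and are given as descriptions.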
